A study of Mus musculus with 2 samples.

Results

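The genes of cholesterol synthesis and sterol transport were followed through the immune cells of mouse melanomas. The group held 31 genes, chosen by name for their place in the pathway, of 31253 genes listed in the count tables, and all 31 had unique molecular identifiers (UMIs, each standing for 1 captured mRNA molecule) in both libraries. They were ordered by role into the mevalonate arm (Acat2, Hmgcs1, Mvk, Pmvk, Mvd, Idi1 and Fdps), the squalene and sterol arm (Fdft1, Sqle, Lss, Cyp51, Tm7sf2, Msmo1, Nsdhl, Hsd17b7, Ebp, Sc5d and Dhcr7), sensing (Srebf1, Srebf2, Scap and Insig1), transport and storage (Stard4, Soat1, Npc1, Npc2 and Abcg1), and the LXR receptors and lipid enzymes (Nr1h2, Nr1h3, Lpcat3 and Fasn). The first 2 roles together are the 18 synthesis enzymes.

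Cells make cholesterol from acetyl-CoA: the mevalonate arm builds isoprenoid units, squalene synthase joins them into squalene, and a chain of demethylases, reductases and isomerases turns the first sterol ring, lanosterol, into cholesterol. When membranes of the endoplasmic reticulum hold little sterol, Scap escorts the transcription factor encoded by Srebf2 to the Golgi for cleavage and the enzyme genes are transcribed, whereas Insig1 holds the complex back when sterol is plentiful. Cholesterol taken up from lipoproteins or dying cells leaves the lysosome through Npc2 and Npc1, is esterified by Soat1 or exported by Abcg1, and oxysterols switch on LXR receptors, which raise export genes. Macrophages, which engulf whole cells, are known for handling large sterol loads in this way.

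The samples were 2 single-cell RNA libraries, made on the BD Rhapsody platform, 1 from Irg1+/+ mice and 1 from Irg1-/- mice. The labels give the mice as C57BL/6 (C57BL/6J in the study's methods) and both groups received 200000 B16-F10 melanoma cells under the skin of the flank, with no other treatment. On day 10, 100 mm3 of tumor from each of 3 mice was pooled within a genotype and 6000 CD45+ cells were sorted. Irg1 is listed as Acod1 in the tables and encodes the enzyme that makes itaconate; the study describes the mice as female and the deletion as a whole-body knockout. With 1 library per genotype and the mice of a pool not told apart, no comparison has a test. The Irg1+/+ table held 6408 cells and 43617546 UMIs and that of the library labelled Irg1-/- held 5896 cells and 36432067 UMIs, the first of them more cells than the 6000 stated for the sort. After the gene and mitochondrial limits that the study states, 6284 and 5794 cells remained, with a median of 4528 and 4594.5 UMIs. A total of 36 cell barcodes occurred in both libraries.

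Acod1 was not lower in the library labelled Irg1-/-. It stood at 87.8 CPM (counts scaled to 1000000 UMIs; 95% Poisson interval 85.0 to 90.7, from 3696 UMIs) in Irg1+/+ and at 108 CPM (104 to 111, from 3805 UMIs) in the library labelled Irg1-/-. UMIs of this platform come from the 3′ end of a transcript, so a tag outside the deleted part of the gene would check nothing, and where the deletion lies was not tested. The genotype of each library therefore rests on its label, and the second is called the library labelled Irg1-/- throughout. An exchange of the labels, which was not tested, would turn the sign of each difference between the libraries. In the study's flow cytometry, on surface protein and at a later day, monocytes were increased in tumors of Irg1-/- mice. The study also reported an increase of Vcan+ monocytes from its own clusters of these single-cell data. Vcan monocytes, gated below, were 8.42% of cells in Irg1+/+ and 12.7% in the library labelled Irg1-/-.

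Cell classes were set by gates on marker genes that include none of the 31, and each class name stands for its gate, to be read as cells like the named type; the study's own annotation was not used here, and differences from it may come from these rebuilt names. A total of 4397 cells (70.0%) in Irg1+/+ and 4187 cells (72.3%) in the library labelled Irg1-/- fell into a class. Myeloid cells were divided by their markers into 4 states and a class of other macrophages outside these states (409 and 451 cells). The states were Ccl24/Mgl2 macrophages (143 and 87 cells), Mrc1 macrophages (381 and 365), Vegfa macrophages (265 and 185) and Vcan monocytes (529 and 733). Vegfa macrophages also carry Hilpda and Ndrg1. Dendritic cells comprised cDC1, the type 1 conventional cells (178 and 136), cDC2, the type 2 conventional cells (175 and 277), and Ccr7 dendritic cells, which carry Ccr7, Fscn1 and Ccl22 (317 and 257). Plasmacytoid dendritic cells (pDC) were few (40 and 29). Lymphocytes were T cells (980 and 499), NK cells (284 and 557) and B cells (65 and 71). The sort marker was checked: Ptprc, which encodes CD45, had a UMI in 93.6% and 95.1% of Vegfa macrophages and in 83.3% and 100% of the 30 and 5 cells gated as melanoma, so the share does not tell them apart. Its level was 715 and 735 CPM in Vegfa macrophages and 200.3 and 207 CPM in the cells gated as melanoma.

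Values are given first for Irg1+/+ and then for the library labelled Irg1-/-. Every interval is at 95% and covers counting error only, since cells of 1 library are not replicates. Between classes a gene counted as different where its CPM differed by more than 1.5-fold in the same direction in both libraries, with at least 20 UMIs over both sides. The 2 libraries serve there as a repeat with another genotype, not as replicates.

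The promoters of the members were searched for motifs through which sterol control is known to act. RefSeq windows from 250 bases before to 50 bases after the start (GRCm38.p6) were found for 25 of the 31 genes and read on both strands for letters chosen after the expression values had been seen. The sterol regulatory element TCACNCCAC was in the windows of 388 of 27025 genes (1.44%) and in 1 of the 25, Hmgcs1, 137 bases before its start. The shorter form TCACCNCA was in 1373 genes (5.08%) and in 4 of the 25, and at Hmgcs1 both forms overlap. It lay 88 bases before the start of Cyp51, 137 before Hmgcs1, 117 before Hsd17b7 and 162 before Srebf2. CCAAT, the box bound by NF-Y, was in 41.1% of genes and in 21 of the 25 (84%), among them 14 of 15 enzymes; the GC box GGGCGG was in 38.2% of genes and also in 21 of the 25. A match is a description of letters and no measure of binding.

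Below are the 250 bases before the start of 4 genes on which the results turn, 5′ to 3′ on the strand of the gene, with sterol elements and CCAAT or its complement ATTGG in capitals. Hmgcs1 and Cyp51 carry a sterol element, Idi1 has 2 CCAAT boxes and no sterol element of these letters, and Npc2, a transport gene, also has 2 CCAAT boxes.
Hmgcs1, chr13:119690101-119690350, plus strand: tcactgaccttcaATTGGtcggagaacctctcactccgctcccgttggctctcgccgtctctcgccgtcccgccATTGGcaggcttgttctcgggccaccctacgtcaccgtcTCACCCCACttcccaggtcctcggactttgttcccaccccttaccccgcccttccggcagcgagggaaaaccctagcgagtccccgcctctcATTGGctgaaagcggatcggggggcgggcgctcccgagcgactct
Cyp51, chr5:4104698-4104947, minus strand: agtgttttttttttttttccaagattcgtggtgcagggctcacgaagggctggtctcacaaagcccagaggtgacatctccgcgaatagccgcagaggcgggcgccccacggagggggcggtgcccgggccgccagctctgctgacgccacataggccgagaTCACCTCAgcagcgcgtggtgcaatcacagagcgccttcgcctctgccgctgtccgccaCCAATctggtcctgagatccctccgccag
Idi1, chr13:8885356-8885605, plus strand: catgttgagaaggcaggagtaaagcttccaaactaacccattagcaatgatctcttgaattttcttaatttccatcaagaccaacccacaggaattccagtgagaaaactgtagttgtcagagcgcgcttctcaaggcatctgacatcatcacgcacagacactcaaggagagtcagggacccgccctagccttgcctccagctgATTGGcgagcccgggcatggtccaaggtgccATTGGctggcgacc
Npc2, chr12:84773113-84773362, minus strand: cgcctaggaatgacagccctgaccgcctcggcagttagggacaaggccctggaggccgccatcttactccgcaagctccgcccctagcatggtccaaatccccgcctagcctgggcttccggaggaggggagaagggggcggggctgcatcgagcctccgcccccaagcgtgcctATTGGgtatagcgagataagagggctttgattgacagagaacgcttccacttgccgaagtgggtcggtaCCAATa

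Over all cells the 31 genes held 124045 and 102809 UMIs, which is 0.295% and 0.291% of each library. Npc2, the soluble lysosomal protein that hands cholesterol on for export, held 48895 and 43383 of these. In the mevalonate arm Hmgcs1, the HMG-CoA synthase, had the most UMIs, with a level of 86.6 and 79.1 CPM. In the sterol arm the most UMIs were those of Cyp51, the lanosterol demethylase, at 177 and 154 CPM. Among the sensing genes they were those of Srebf2, at 197 and 179 CPM, and in the last role those of Nr1h2, the LXR beta receptor, at 57.9 and 58.4 CPM. The precision therefore differs widely between members, and the sparsest was Fdps, the farnesyl diphosphate synthase, with 103 and 76 UMIs in all.

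Among 12 classes ranked, plasmacytoid and conventional dendritic cells had the highest summed level of the 18 enzymes, and Vegfa macrophages had the lowest, in both libraries. Neutrophils, eosinophils, melanoma cells and cycling cells were kept out of this ranking. The sum was 1830 CPM (1664 to 2008) and 1380 CPM (1208 to 1570) in pDC. In cDC2 it was 1657 CPM (1586 to 1730) and 1150 CPM (1105 to 1197), and in cDC1 1026 CPM (979 to 1075) and 1058 CPM (1001 to 1118). The pDC and cDC2 intervals overlapped in Irg1+/+, and the cDC2 and cDC1 intervals overlapped in the library labelled Irg1-/-.

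Vcan monocytes followed with 901 and 757 CPM and Ccr7 dendritic cells with 864 and 710 CPM, with overlapping intervals. Other macrophages had 715 and 650 CPM. T cells stood at 672 and 650 CPM and Mrc1 macrophages at 629 and 506 CPM. B cells had 501 and 584 CPM and NK cells 486 and 372 CPM. In Irg1+/+ the order of T cells and Mrc1 macrophages turned in thinned cells, with the mean of each cell's CPM, with TMM scaling and with clusters. Vegfa macrophages had 377 CPM (352 to 403) and 353 CPM (322 to 385). That level lay below every other ranked class in Irg1+/+, and in the library labelled Irg1-/- its interval overlapped that of NK cells (344 to 402 CPM). Ccl24/Mgl2 macrophages were the class whose place moved most, at 843 CPM (798 to 889) and 530 CPM (486 to 578).

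Transport and storage genes ran in another order. Their sum was highest in Vegfa macrophages, at 3080 CPM (3008 to 3153) and 3008 CPM (2918 to 3101), above the other 11 ranked classes in both libraries. Vcan monocytes had 2247 and 2215 CPM and other macrophages 2116 and 2082 CPM. Mrc1 macrophages had 1908 and 2056 CPM and Ccr7 dendritic cells 1872 and 2238 CPM. Lymphocytes were lowest, with 1144 and 1089 CPM in T cells, 901 and 941 CPM in NK cells and 788 and 653 CPM in B cells. Npc2 made up most of each of these sums, so they describe that gene before the other 4.

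**Figure D1:**
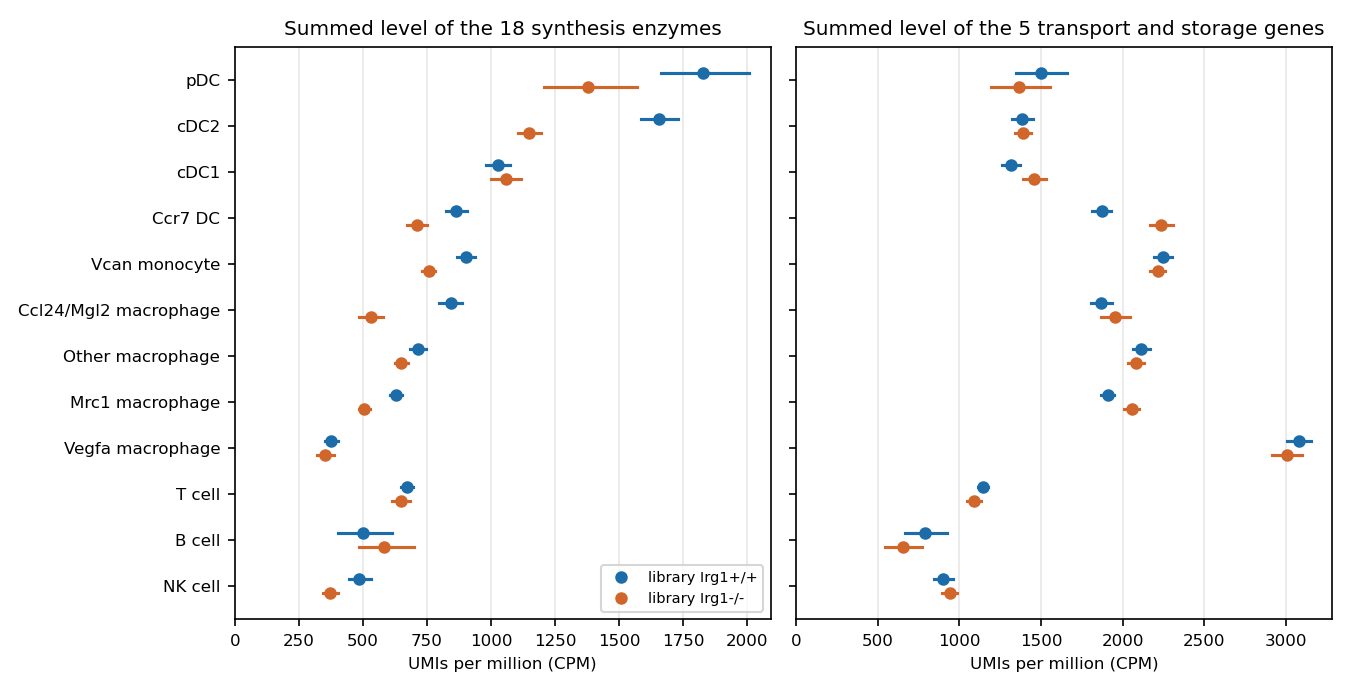
Summed level in CPM of the 18 synthesis enzymes and of the 5 transport and storage genes by cell class, 1 point per library with its 95% Poisson interval. Vegfa macrophages are lowest for the enzymes (377 and 353 CPM) and highest for transport and storage (3080 and 3008 CPM).

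The pDC class was high across many members, although its 40 and 29 cells give wide intervals. Npc1, the lysosomal membrane protein that receives cholesterol from Npc2, was at 185 CPM (135 to 247) and 137 CPM (87.1 to 206) in pDC, against 82.4 and 97.0 CPM in Vegfa macrophages. Hmgcs1 was at 242 and 143 CPM and Msmo1, a methylsterol oxidase, at 390 and 179 CPM. Scap, the sterol sensor that escorts SREBP, was at 94.4 and 173 CPM. In Irg1+/+ the Npc1 interval of pDC lay above that of Vegfa macrophages, and in the library labelled Irg1-/- the intervals overlapped.

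Shares of cells with a UMI followed the same order when each cell was thinned to 2000 UMIs, which left out shallower cells (6 and 3 Vegfa macrophages, 11 and 24 Vcan monocytes, 3 and 5 cDC2, 123 and 110 T cells). Cyp51 was then seen in 46.5% and 30.9% of cDC2, in 30.1% and 26.9% of Vcan monocytes and in 11.97% and 7.69% of Vegfa macrophages. Before thinning those shares were 70.3% and 60.6%, 51.2% and 45.2%, and 31.7% and 20%. Npc2 was seen in 96.5% and 96.2% of thinned Vegfa macrophages and in 72.1% and 74.3% of thinned T cells. Since no class is known to lack Cyp51 or Npc2, no class gives their share from free RNA. Nr1h3, the LXR alpha receptor of macrophages, was seen in 0.7% and 2.3% of thinned T cells. In thinned Vegfa macrophages its share was 3.5% and 4.9%. The T cell share is a free RNA background only if T cells lack Nr1h3, which was not tested. Median depths before thinning were 3548 and 2870 UMIs in T cells and 7220 and 6516 in Vegfa macrophages.

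**Figure D2:**
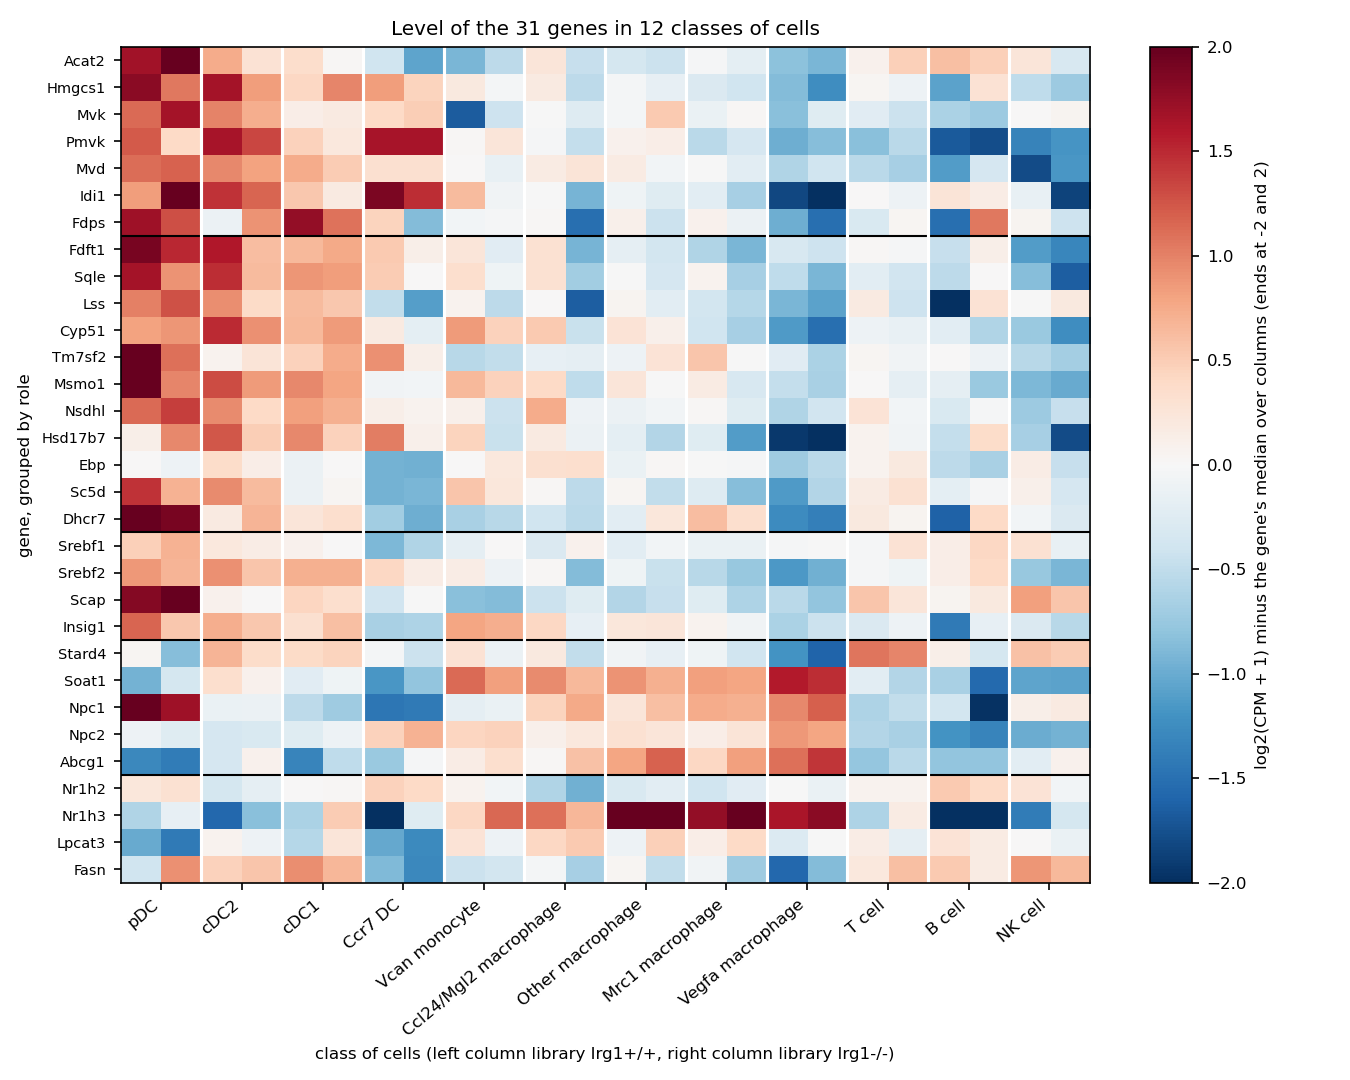
Level of each of the 31 genes by cell class and library, as log2 of CPM plus 1 minus the median of the gene over the classes shown, with the color scale ending at 2 in each direction. The enzyme rows are high in pDC, cDC2 and cDC1 and low in Vegfa macrophages, and the rows of Npc2, Soat1 and Abcg1 are high in Vegfa macrophages.

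Vegfa macrophages had the lowest level of most synthesis enzymes among the 4 myeloid states. Of the 18 enzymes, 14 and 12 were lowest in this state, 10 of them in both libraries, and none was highest in it. Against the other 3 states together, 10 of 30 members with enough UMIs were lower and 2 were higher, where 8.62% of all genes tested were lower and 5.76% higher. The median log2 ratio was -0.81 and -0.55 over the enzymes tested and -0.14 and -0.09 over all genes.

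Cyp51 was at 64.6 and 49.2 CPM in Vegfa macrophages and at 170 and 143 CPM in the other 3 states. The log2 ratio was -1.39 (-1.65 to -1.15) and -1.52 (-1.91 to -1.18), so the intervals of both libraries lay far below 0. Hsd17b7, the keto-sterol reductase of the demethylation steps, was at 7.12 and 5.79 CPM against 31.7 and 19.0 CPM. Its log2 ratio was -2.11 (-2.98 to -1.43) and -1.63 (-2.95 to -0.71), from 16 and 8 UMIs in Vegfa macrophages. Dhcr7, which carries out the last reduction to cholesterol, was at 7.12 and 6.51 CPM against 20.9 and 16.8 CPM, a log2 ratio of -1.51 and -1.30. These enzymes act early, midway and last in the sterol arm, and each was lower in both libraries.

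Idi1, the isomerase that makes the reactive isoprenoid unit, had 4 UMIs in Vegfa macrophages of Irg1+/+ and 0 in those of the library labelled Irg1-/-. The Irg1+/+ level was 1.78 CPM against 9.76 CPM in the other 3 states, with a log2 ratio of -2.29 (-4.36 to -1.05). The count of 0 among 1381453 UMIs allows up to 2.17 CPM, taken as 3 counts in that class. The level of 6.60 CPM in the other states is 3.04-fold above that limit, with its own counting error left out. With the error of both sides, the interval of the log2 ratio in that library reached up to -1.26. Further upstream, Hmgcs1 was at 37.0 and 28.2 CPM against 66.4 and 58.5 CPM (log2 ratio -0.84 and -1.03). Pmvk, the phosphomevalonate kinase, was at 17.8 and 19.5 CPM against 30.2 and 35.1 CPM (log2 ratio -0.75 and -0.82).

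Msmo1, with log2 ratios of -0.85 and -0.75, and Ebp, the sterol isomerase, with -0.78 and -0.67, completed the 8 enzymes. Outside synthesis, Insig1 was at 73.9 and 85.4 CPM against 151 and 149 CPM, a log2 ratio of -1.02 (-1.27 to -0.79) and -0.79 (-1.08 to -0.53). Insig1 is itself a target of sterol control as well as its brake, and in this state it was lower along with the 8 enzymes. The part of sterol control in these levels was not tested. Stard4, which carries sterol through the cytosol, was at 18.7 and 13.8 CPM against 46.7 and 36.3 CPM (log2 ratio -1.30 and -1.37), the only transport gene that was lowest in this state.

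The 2 members that were higher in Vegfa macrophages store and export cholesterol. Soat1, which esterifies cholesterol for lipid droplets, was at 526 CPM (496 to 557) and 492 CPM (455 to 530) against 338 and 303 CPM in the other 3 states. Its log2 ratio was 0.64 (0.54 to 0.73) and 0.70 (0.57 to 0.82). Abcg1, which exports cholesterol to lipoproteins, was at 241 and 303 CPM against 135 and 166 CPM, a log2 ratio of 0.83 (0.68 to 0.98) and 0.87 (0.71 to 1.02). Npc2, at 2212 and 2103 CPM, and Npc1, at 82.4 and 97.0 CPM, were also highest in this state in both libraries. Each passed 1.5-fold in 1 library and not in the other, with log2 ratios of 0.63 and 0.43 for Npc2 and 0.51 and 0.85 for Npc1. The clusters differ from the gated classes: that labelled Ccl24/Mgl2 held 517 and 454 cells, against 143 and 87 gated, and 291 and 252 cells fell into a cluster labelled by mast cell markers, against 3 and 7 gated. When clusters replaced the gates, Soat1 and Abcg1 no longer passed 1.5-fold, and Soat1 also did not pass in thinned cells. Among the lower enzymes, Msmo1, Dhcr7 and Ebp lost their calls with clusters, and Idi1 and Ebp lost theirs in thinned cells.

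Other genes of the pathway, a list of 38, gave 11 lower and 5 higher of 34 tested in Vegfa macrophages. Abca1, the exporter that loads cholesterol onto apolipoproteins, was at 482 and 505 CPM against 160.7 and 142 CPM (log2 ratio 1.59 and 1.84). Plin2, the coat protein of lipid droplets, was at 1219.9 and 971 CPM against 609.6 and 429.9 CPM (log2 ratio 1.00 and 1.18). Cd36, a scavenger receptor for modified lipoproteins, had a log2 ratio of 0.71 and 1.22. Fads1, a fatty acid desaturase, was at 15.6 and 12.3 CPM against 57.3 and 36.5 CPM and was among the lower genes. Melanoma markers did not set this class apart: the 4 of them (Mlana, Pmel, Dct and Tyrp1, all with UMIs) summed to 174 and 60.8 CPM in Vegfa macrophages, with Dct the most abundant, against 152 and 44.8 CPM in Vcan monocytes.

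Vcan monocytes stood at the other end. Of the 18 enzymes, 9 and 10 were highest in this state among the 4, 8 of them in both libraries. Against the other 3 states, 8 of 30 members were higher and 2 lower, where 6.46% of all genes tested were higher and 14.3% lower, and of 17 enzymes tested 6 were higher and 0 lower. The median log2 ratio was 0.51 and 0.55 over the enzymes and -0.14 in both libraries over all genes.

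Cyp51 was at 256 CPM (238 to 275) and 196 CPM (183 to 209) in Vcan monocytes and at 114 and 82.4 CPM in the other 3 states, a log2 ratio of 1.164 and 1.246. Idi1 was at 14.2 and 8.37 CPM against 6.26 and 3.81 CPM (log2 ratio 1.19 and 1.12). Sc5d, the desaturase that acts near the end of the sterol arm, was at 81.1 and 64.9 CPM against 42.2 and 32.8 CPM (log2 ratio 0.94 and 0.98). Hsd17b7 had log2 ratios of 0.89 and 0.66, Msmo1 of 0.59 and 0.89, and Fdft1, the squalene synthase, of 0.59 in both. Enzymes of both arms were therefore among those that were higher.

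Of the 4 sensing genes, Srebf2 and Insig1 were higher in Vcan monocytes. Srebf2 was at 210.0 and 176 CPM against 129 and 106 CPM, a log2 ratio of 0.70 (0.55 to 0.84) and 0.73 (0.57 to 0.88). Insig1 was at 199 and 191 CPM against 115 and 103 CPM (log2 ratio 0.79 and 0.89). Srebf1, with log2 ratios of -0.04 and 0.08, and Scap, with -0.51 and -0.30, did not pass 1.5-fold in both libraries. The 2 members that were lower were Npc1, at 36.7 and 38.0 CPM against 71.2 and 75.5 CPM (log2 ratio -0.95 and -0.99), and Nr1h3, at 9.36 and 16.3 CPM against 23.0 and 30.4 CPM (log2 ratio -1.27 and -0.90). Among the other pathway genes, Abca1 was at 43.7 and 53.8 CPM against 281 and 289 CPM (log2 ratio -2.68 and -2.42), and Lipa, the lysosomal lipase that frees cholesterol from its esters, was at 141 and 132 CPM against 438 and 398 CPM. Of 34 such genes 6 were higher and 11 lower.

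With clusters in place of gates 5 members were called, 2 higher and 3 lower, and Cyp51 and Idi1 kept their calls while Insig1, Srebf2, Sc5d, Hsd17b7, Msmo1 and Fdft1 lost theirs. In thinned cells Idi1, Sc5d, Msmo1 and Fdft1 lost their calls, and with the mean of each cell's CPM Srebf2, Msmo1 and Fdft1 did. Cyp51, Npc1 and Nr1h3 kept their calls under all 10 alternatives that used the same fold. Scaling by TMM, which shifted all genes of this comparison by 0.09 and 0.14 on the log2 scale, gave 11 higher and 2 lower. The 6 macrophage markers led by C1qb in other states summed to 2525 and 2834 CPM in Vcan monocytes and to 4489 and 4673 CPM in Vegfa macrophages, so the states also differ in that list, and its part in the result was not tested.

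**Figure D3:**
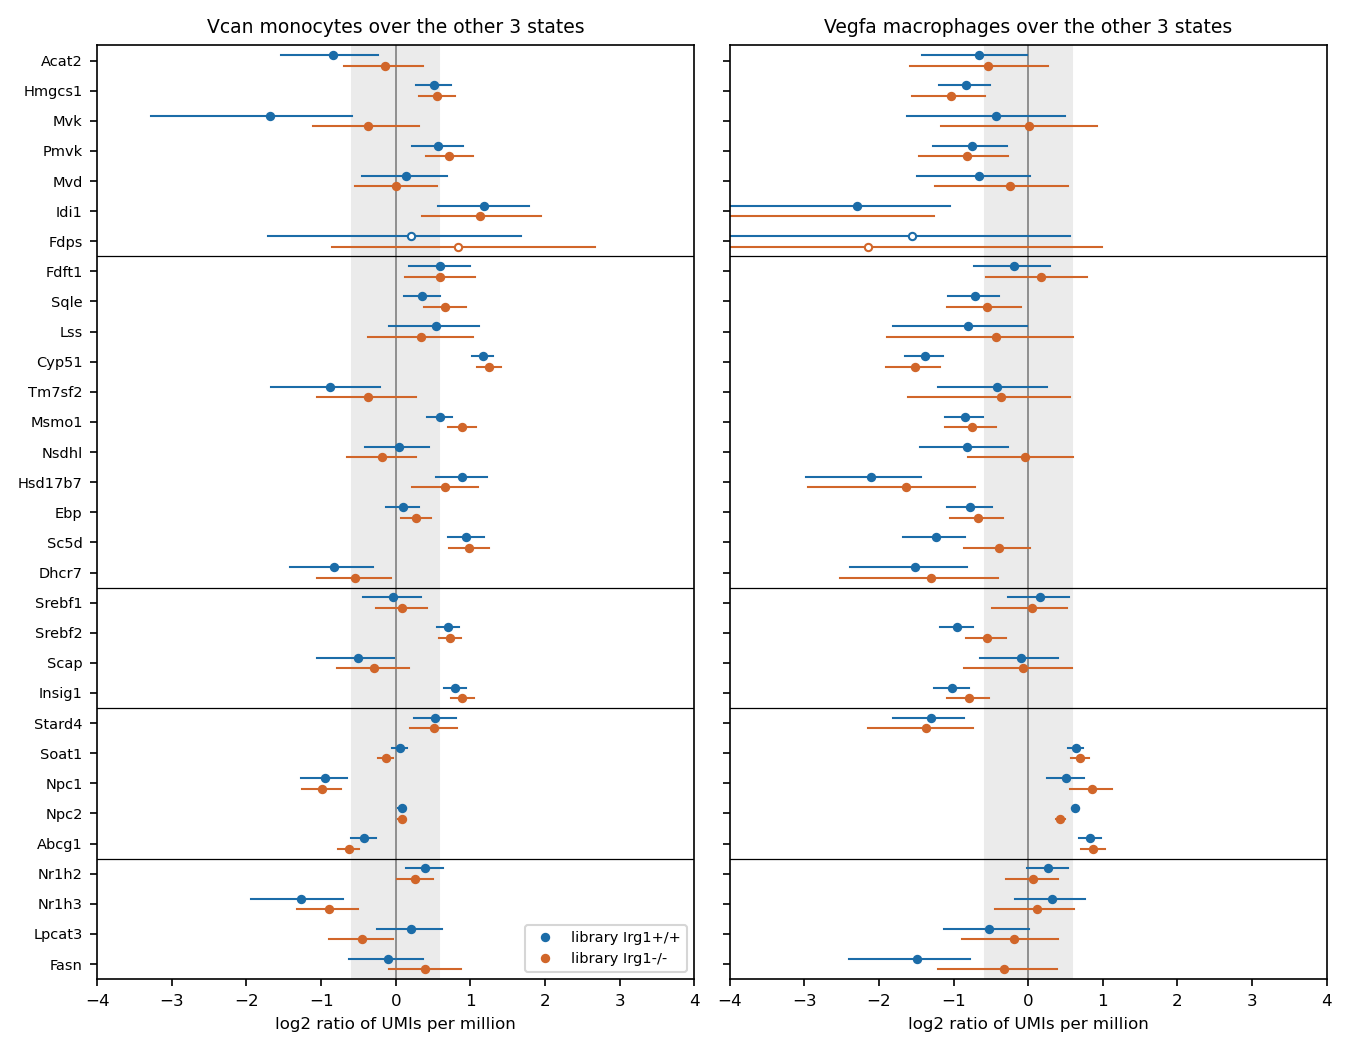
Log2 ratio of CPM between Vegfa macrophages (left) or Vcan monocytes (right) and the other 3 myeloid states for each of the 31 genes, 1 point per library with its 95% interval, cut at 4 in each direction; the grey band marks ratios under 1.5-fold and open points have under 20 UMIs. Cyp51 lies at -1.39 and -1.52 on the left and at 1.164 and 1.246 on the right, while Soat1 and Abcg1 lie above the band on the left.

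In Mrc1 macrophages, of 30 members tested 2 were higher and 2 lower, where 9.84% of all genes tested were higher and 4.95% lower. These counts are near the background share and give no result about the members as a group. Dhcr7 was at 28.7 and 23.6 CPM against 10.5 and 11.1 CPM, a log2 ratio of 1.44 (1.03 to 1.88) and 1.09 (0.63 to 1.56), and this last enzyme of the pathway was the only enzyme higher in the state. Nr1h3 was at 25.3 and 37.1 CPM against 15.4 and 17.6 CPM (log2 ratio 0.71 and 1.08). Both kept their calls under the 10 alternatives with the same fold. Cyp51 was lower, at 108 and 89.2 CPM against 179.8 and 153 CPM, and Fdft1 was at 14.4 and 11.4 CPM against 24.1 and 17.4 CPM. Cyp51 and Fdft1 lost their calls in thinned cells, with the mean of each cell's CPM and with clusters, and Fdft1 also with stricter gates. TMM scaling shifted all genes of this comparison by -0.11 and -0.13. Of the 34 other pathway genes 6 were higher and 1 lower, with Lipa at 512 and 448 CPM against 256 and 197 CPM and Apoe, the apolipoprotein that accepts exported cholesterol, at 1668 and 1964 CPM against 733 and 1031 CPM.

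In Ccl24/Mgl2 macrophages 0 of 30 members passed 1.5-fold in the same direction in both libraries, where 2.34% of all genes tested were higher and 3.32% lower. The median log2 ratio of the enzymes had opposite signs, 0.42 in Irg1+/+ and -0.29 in the library labelled Irg1-/-. In cells thinned to 2000 UMIs 3 members were called and with stricter gates 2. The level of the enzymes in this state thus depended on the library, as the comparison between libraries also shows.

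Conventional and Ccr7 dendritic cells together had higher enzyme levels than the 4 myeloid states. All 31 members had enough UMIs, and 13 were higher and 4 lower, where 12.5% of all genes tested were higher and 13.1% lower. Of the 18 enzymes 11 were higher and 0 lower, with a median log2 ratio of 0.73 and 0.80, against -0.02 and 0.01 over all genes.

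The mevalonate arm stood out among them. Pmvk was at 92.9 and 88.7 CPM in dendritic cells and at 27.8 and 33.1 CPM in the 4 states, a log2 ratio of 1.74 (1.53 to 1.95) and 1.42 (1.22 to 1.63). Idi1 was at 25.3 and 20.2 CPM against 8.22 and 5.73 CPM (log2 ratio 1.62 and 1.81). Hmgcs1 was at 135 and 116 CPM against 60.7 and 54.5 CPM (log2 ratio 1.16 and 1.09). Mvk, the mevalonate kinase, had log2 ratios of 1.11 and 0.82, Mvd, the decarboxylase, of 0.77 and 0.79, and Fdps of 1.47 and 1.22 from 23 and 16 UMIs. Of the 7 genes of this arm only Acat2, which makes acetoacetyl-CoA, did not pass 1.5-fold in both libraries. Its counts are uncertain, since Acat3 is a closely related copy of the gene, and reads that fit both were not examined here.

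In the sterol arm Hsd17b7 was at 63.8 and 38.8 CPM against 26.98 and 17.3 CPM (log2 ratio 1.24 and 1.17). Fdft1 was at 42.8 and 32.0 CPM against 19.96 and 15.3 CPM (log2 ratio 1.10 and 1.06). Sqle, the squalene epoxidase that catalyses the first oxygen-dependent step, was at 103 and 76.5 CPM against 57.0 and 40.1 CPM (log2 ratio 0.85 and 0.93). Cyp51 was at 241 and 215 CPM against 149 and 130.2 CPM, and Lss, the lanosterol synthase, had log2 ratios of 0.70 and 0.83. The late enzymes Ebp and Dhcr7 did not follow, with log2 ratios of -0.18 and -0.26 for Ebp and -0.09 and 0.45 for Dhcr7. In thinned cells Cyp51, Fdft1 and Fdps lost their calls, and with clusters Cyp51, Lss, Mvk and Mvd did. Cyp51 also lost its call with the mean of each cell's CPM, Lss with stricter gates and Fdps with at least 50 UMIs.

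Srebf2 was at 298 CPM and 261 CPM in dendritic cells against 149 and 136 CPM, a log2 ratio of 1.00 (0.90 to 1.10) and 0.94 (0.84 to 1.05). Insig1 did not differ in the same way, with log2 ratios of -0.10 and -0.03. Fasn, the fatty acid synthase, was at 26.7 and 24.5 CPM against 17.0 and 14.4 CPM and lost its call in thinned cells. Storage and export genes were lower: Soat1 at 137 and 151 CPM against 374 and 328 CPM, Npc1 at 25.1 and 27.1 CPM against 62.7 and 59.6 CPM, and Abcg1 at 64.2 and 106 CPM against 156 and 184 CPM. Their log2 ratios lay between -1.45 and -0.80. Nr1h3 was at 2.16 and 5.69 CPM against 19.6 and 24.5 CPM, a log2 ratio of -3.12 (-4.21 to -2.32) and -2.08 (-2.71 to -1.55), from 11 and 29 UMIs in dendritic cells. That is 11.01% and 23.3% of its level in the 4 states, where the 6 macrophage markers in dendritic cells summed to 17.6% and 19.9% of theirs. Since that list holds Csf1r, its most abundant gene in cDC2 of Irg1+/+ at 380.1 CPM, it is no pure measure of free RNA, and the part of free RNA in the low Nr1h3 level was not tested. The other pathway genes leaned the same way, with 13 lower and 4 higher of 34, among them Abca1 at 20.8 and 24.5 CPM against 222 and 190.3 CPM and Apoe at 194 and 246 CPM against 1129 and 1359.96 CPM.

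Within the dendritic cells the Ccr7 class had lower levels of 7 of the 11 genes of the sterol arm. Against cDC1 and cDC2 together, 14 of 29 members were lower and 2 higher, where 23.5% of all genes tested were lower and 13.7% higher. The median log2 ratio of the members was -0.70 and -0.71, against -0.16 and -0.21 over all genes. TMM scaling, which shifted all genes of this comparison by 0.12 and 0.19, gave 12 lower and 4 higher.

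Sc5d was at 28.0 and 28.9 CPM in Ccr7 dendritic cells and at 74.0 and 75.5 CPM in cDC1 and cDC2, a log2 ratio of -1.39 (-1.84 to -0.98) and -1.38 (-1.85 to -0.95). Msmo1 was at 85.9 and 87.7 CPM against 197 and 161 CPM (log2 ratio -1.20 and -0.88). Ebp was at 39.9 and 39.4 CPM against 83.1 and 82.5 CPM (log2 ratio -1.05 and -1.06). Cyp51 was at 160.4 and 124 CPM against 298 and 264 CPM (log2 ratio -0.89 and -1.08). The ratios of Dhcr7 were -0.95 and -1.60 and those of Lss -1.33 and -1.65, with Lss losing its call in thinned cells, and 7 of the 11 genes of the arm were lower, from squalene epoxidation to the last reduction. Sqle, Srebf1 and Lpcat3, an enzyme that remodels phospholipids, were also lower and lost their calls in thinned cells, Sqle and Srebf1 also with TMM scaling and Sqle with clusters.

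In the mevalonate arm 1 gene was higher, Idi1, and 1 lower, Acat2, of 6 tested, with a median log2 ratio of -0.20 and -0.22. Acat2 was at 12.8 and 7.77 CPM against 25.5 and 20.02 CPM (log2 ratio -0.97 and -1.32) and lost its call in thinned cells. Pmvk was at 115 and 115 CPM in Ccr7 dendritic cells, against 115 and 92.3 CPM in cDC2 and 49.97 and 41.8 CPM in cDC1. Idi1 was at 35.1 and 26.1 CPM against 18.4 and 17.0 CPM in cDC1 and cDC2 together, a log2 ratio of 0.93 (0.41 to 1.46) and 0.62 (0.03 to 1.21), and lost its call in thinned cells and with clusters. Hmgcs1 had 122 and 93.8 CPM, between the cDC1 and cDC2 levels in Irg1+/+ (91.3 and 219 CPM) and below both (135 and 123 CPM) in the library labelled Irg1-/-. The summed mevalonate arm was 317 and 273 CPM in Ccr7 dendritic cells, 217 and 238 CPM in cDC1 and 435 and 300.4 CPM in cDC2.

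Insig1 was at 73.6 and 75.0 CPM against 164 and 171 CPM in cDC1 and cDC2 (log2 ratio -1.15 and -1.18), and Fasn at 11.4 and 8.33 CPM against 37.5 and 33.4 CPM (log2 ratio -1.70 and -1.96). Soat1 was at 77.4 and 101 CPM against 180.4 and 178 CPM and Npc1 at 14.7 and 14.99 CPM against 32.5 and 33.7 CPM. Npc2 went the other way, at 1671 and 1981 CPM against 1006 and 1042 CPM, a log2 ratio of 0.73 (0.66 to 0.80) and 0.93 (0.86 to 0.99). Npc2 and Npc1, which act in turn in the lysosome, thus had opposite directions in this class. Of the 34 other pathway genes 23 were lower and 1 higher, the latter Gramd1b, a sterol carrier between plasma membrane and endoplasmic reticulum, at 127 and 103 CPM against 35.5 and 29.4 CPM.

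**Figure D4:**
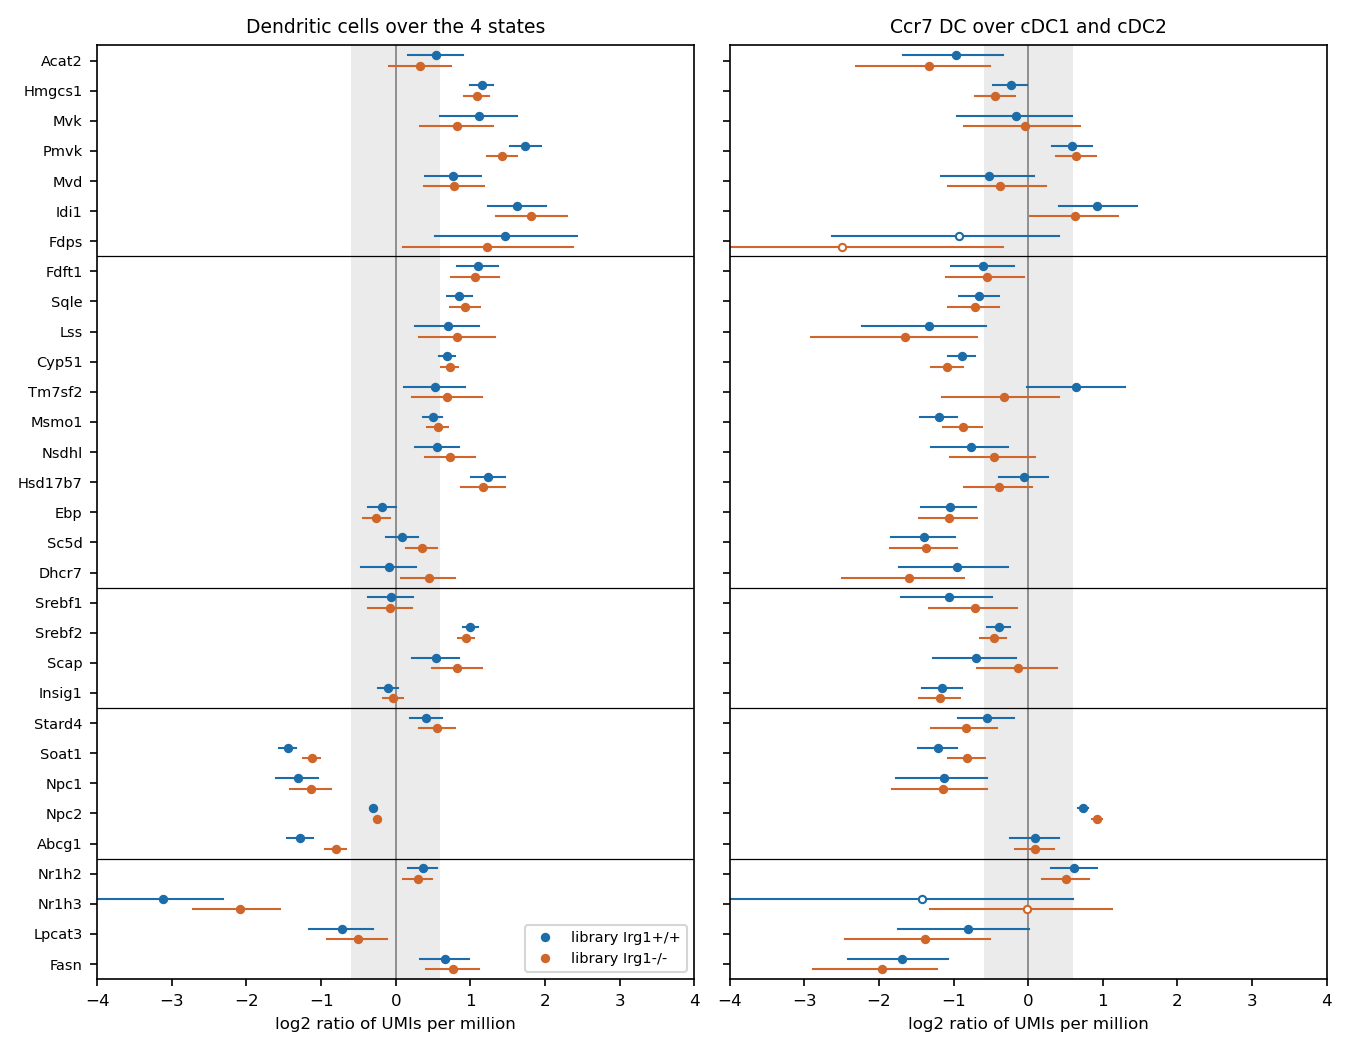
Log2 ratio of CPM for each of the 31 genes between dendritic cells and the 4 myeloid states (left) and between Ccr7 dendritic cells and cDC1 and cDC2 (right), 1 point per library with its 95% interval, cut at 4 in each direction; the grey band marks ratios under 1.5-fold and open points have under 20 UMIs. Pmvk lies at 1.74 and 1.42 on the left, and on the right Npc2 lies above the band at 0.73 and 0.93 while Sc5d lies below it at -1.39 and -1.38.

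In lymphocytes 3 of the 31 members were higher and 7 lower than in the 4 myeloid states. Of all genes tested 28.1% were higher and 15.8% lower. The total of member calls is below the background share of genes, although the share of lower calls is above its background. The total gives no result about the members as a group. By role, all 5 transport and storage genes differed, 1 higher and 4 lower. Of the 18 enzymes 0 were higher and 2 lower, Pmvk (log2 ratio -0.59 and -0.74) and Mvd (-0.69 and -0.74). The median log2 ratio of the enzymes was 0.07 and 0.01, against 0.26 and 0.28 over all genes. TMM scaling shifted this comparison by -0.26 and -0.28 and gave 2 higher and 10 lower.

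Stard4 was at 87.2 and 73.9 CPM in lymphocytes and at 41.3 and 33.3 CPM in the 4 states, a log2 ratio of 1.08 (0.90 to 1.26) and 1.15 (0.92 to 1.37). Scap was at 39.1 and 33.8 CPM against 18.4 and 15.4 CPM (log2 ratio 1.09 and 1.14). Soat1 was at 139 and 99.3 CPM against 374 and 328 CPM (log2 ratio -1.43 and -1.72). Npc2 was at 764 and 699 CPM against 1578 and 1634 CPM (log2 ratio -1.05 and -1.22), and Abcg1 and Npc1 were also lower. Fasn was at 28.4 and 33.6 CPM against 17.0 and 14.4 CPM (log2 ratio 0.74 and 1.22) and lost its call with TMM scaling. Pmvk and Mvd lost theirs with stricter gates, Mvd also in thinned cells, and Pmvk also with mitochondrial UMIs under 5% and with 1 UMI added. T cells alone had 93.3 and 87.2 CPM of Stard4 and 807 and 779 CPM of Npc2.

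Free RNA from lysed cells bears on low levels. The 6 macrophage markers summed in lymphocytes to 17.5% and 18.01% of their level in the 4 states. Nr1h3 in lymphocytes was at 18.3% and 25.2% of its level in those states. Soat1 was at 37.0% and 30.2%, Npc2 at 48.4% and 42.8% and Abcg1 at 45.1% and 51.1%. Since the marker list holds Csf1r, it is no pure measure of free RNA, and the part of free RNA in these levels was not tested. Melanoma markers summed in the immune classes to between 124 and 215 CPM in Irg1+/+ and to between 14.7 and 98.2 CPM in the library labelled Irg1-/-.

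Cycling cells were compared with non-cycling cells of the same lineage, since the gate for cycling rests on genes such as Mki67 and Top2a. In T cells 3 of 30 members were higher and 1 lower, where 11.9% of all genes tested were higher and 14.8% lower. Sqle was at 75.5 and 64.2 CPM in cycling T cells against 46.5 and 41.2 CPM (log2 ratio 0.70 and 0.63), and Hsd17b7 at 47.6 and 52.1 CPM against 31.4 and 28.7 CPM (log2 ratio 0.60 and 0.85). Idi1 had log2 ratios of 0.99 and 0.61, the second with an interval reaching below 0 (-0.20 to 1.53). Abcg1 was at 21.7 and 34.5 CPM against 64.8 and 76.6 CPM, a log2 ratio of -1.58 (-1.91 to -1.26) and -1.15 (-1.504 to -0.805). Depth moved with this comparison, with a median of 12885 and 14286.5 UMIs in cycling T cells against 3548 and 2870 in the others. In thinned cells Abcg1 was at 22.1 and 48.6 CPM against 57.2 and 73.3 CPM, a log2 ratio of -1.33 (-2.26 to -0.58) and -0.57 (-1.39 to 0.15), and its call was lost, as were those of Hsd17b7 and Idi1. Thinning called 6 members in all, 6 higher and 0 lower, and the mean of each cell's CPM called 5 higher and 1 lower. The 4 calls of the main comparison, of 30 members, are fewer than the background share of genes. Those counts give no result about the members.

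In macrophages 2 of 30 members were higher and 0 lower, where 9.83% of all genes tested were higher and 5.23% lower. These were Ebp, at 109 and 117 CPM against 72.1 and 75.7 CPM, and Nsdhl, a sterol dehydrogenase, at 30.8 and 33.7 CPM against 20.4 and 17.6 CPM. The counts of calls are below the background share of genes and give no result about the members. TMM scaling shifted this comparison by -0.17 in both libraries and left 0 higher and 1 lower, so neither call held on that scale. Cycling macrophages had a median of 21906 and 14896 UMIs, and depth moved with this comparison. The non-cycling side was the Ccl24/Mgl2, Mrc1, Vegfa and other macrophages, without Vcan monocytes. Medians of these classes lay between 5991 and 10733 and between 6516 and 9798 UMIs.

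Contrasts chosen after the values had been seen added cDC1, with 4 of 28 members higher and 2 lower (background 6.72% and 4.49%), and Mrc1 macrophages, with 1 of 30 higher, Nsdhl, and 0 lower (6.78% and 3.59%). In cycling cDC1 Abcg1 was at 15.5 and 27.4 CPM against 44.2 and 77.7 CPM (log2 ratio -1.48 and -1.46), and Stard4 at 94.1 and 92.9 CPM against 57.4 and 60.2 CPM. Cycling cDC1 had a median of 16691.5 and 13935 UMIs against 8699 and 7786.5 in the others. In thinned cells the Abcg1 counts of cycling cDC1 were 1 and 2 UMIs, with log2 ratios of -1.88 (-7.81 to 0.29) and -1.22 (-4.64 to 0.49), too few for a call.

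Between the libraries, synthesis enzymes were lower in the library labelled Irg1-/- in several classes, above all in Ccl24/Mgl2 macrophages and cDC2, and the log2 ratio of Abcg1 was above 0 in all 11 classes compared, past 1.5-fold in 3. The 11 classes were the 4 myeloid states, cDC1, cDC2, Ccr7 dendritic cells, T cells, NK cells, cycling T cells and cycling macrophages. Outside them, Abcg1 was at 292 and 206 CPM in neutrophils, with overlapping intervals, at 45.1 and 41.8 CPM in pDC and at 63.9 and 63.8 CPM in B cells. These values set 1 library against 1 library; a difference between the pools of mice, the tumors or the libraries cannot be told apart from the label, and the 11 classes share the same pair of libraries. Over 31 members and 11 classes, 322 of 341 pairs had at least 20 UMIs, and 37 were lower by more than 1.5-fold and 9 higher, where 7.87% of all pairs of gene and class were lower and 6.34% higher. The count of higher pairs depended on the processing: in thinned cells 39 pairs were lower and 21 higher, with clusters 45 and 14, with the mean of each cell's CPM 42 and 14, and with no minimum of UMIs 46 and 16. Of the 37, 21 were in Ccl24/Mgl2 macrophages, Mrc1 macrophages and cDC2.

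In Ccl24/Mgl2 macrophages the summed enzymes were at 843 CPM in Irg1+/+ and 530 CPM in the library labelled Irg1-/-, a log2 ratio of -0.67 (-0.82 to -0.52). Of the members 11 were lower and 0 higher, where 8.21% of all genes tested were lower and 10.2% higher. Cyp51 was at 204 CPM in Irg1+/+ and 104 CPM in the library labelled Irg1-/- (log2 ratio -0.97, interval -1.31 to -0.65). Srebf2 was at 192 and 104 CPM (-0.88, interval -1.23 to -0.56), Msmo1 at 120.2 and 63.7 CPM (-0.90) and Sqle at 66.7 and 32.9 CPM (-1.01). Fdft1 was at 28.1 and 11.3 CPM, the latter from 11 UMIs. Lss rested on 19 and 3 UMIs, with a log2 ratio of -1.76 (-4.34 to -0.18). In this class of 143 and 87 cells, 8 of 16 enzymes tested, Srebf2 and Stard4 (50.5 and 30.8 CPM) were lower, whereas Ebp was at 96.7 and 97.6 CPM. Marker levels moved as well. The 4 markers of type 2 conventional dendritic cells, all with UMIs, summed to 984 and 707 CPM. Mgl2, at 903 and 626 CPM, carried that fall. Mgl2 is also 1 of the 3 markers of the state itself, which summed to 3686 and 3690 CPM. The 6 macrophage markers, all with UMIs, summed to 4123 and 5185 CPM, with C1qb the most abundant. The 5 Vcan state markers, all with UMIs, summed to 2226 and 2647 CPM. Plac8, the most abundant, was at 608 and 1114 CPM, and the others together did not rise. The part of these markers in the result was not tested.

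In cDC2 the summed enzymes were at 1657 and 1150 CPM, a log2 ratio of -0.53 (-0.61 to -0.44), with 5 members lower and 0 higher (background 7.66% lower and 8.02% higher). Hmgcs1 was at 219 CPM in Irg1+/+ and 123 CPM in the library labelled Irg1-/- (log2 ratio -0.83, interval -1.08 to -0.58). Fdft1 was at 69.9 and 34.7 CPM (-1.01), Sqle at 151 and 84.3 CPM (-0.84), Hsd17b7 at 72.3 and 42.8 CPM (-0.76) and Cyp51 at 403 and 268 CPM (-0.59). In cDC1 the summed enzymes differed by a log2 ratio of 0.04 (-0.06 to 0.15), and this interval and that of cDC2 do not overlap. In cDC2 the 5 Vcan state markers, all with UMIs, summed to 1876 and 3057 CPM, with Plac8 the most abundant at 1132 and 1717 CPM, and their part was not tested.

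In Mrc1 macrophages 5 members were lower and 0 higher (background 8.39% and 6.25%), among them Sqle at 56.3 and 33.6 CPM and Hsd17b7 at 25.3 and 13.3 CPM. Markers moved in this class as well: the 5 Vcan state markers, all with UMIs, summed to 1217 and 2913 CPM, with Ly6c2 the most abundant at 466 and 1372 CPM. The 4 Mrc1 state markers, all with UMIs, summed to 1823 and 1463 CPM, with Mrc1 the most abundant, and the part of these markers was not tested. In Vcan monocytes 3 were lower and 2 higher (6.5% and 5.38%), with Hsd17b7 at 41.2 and 21.9 CPM (log2 ratio -0.91) and Mvk at 2.08 and 6.33 CPM (1.52, interval 0.31 to 3.17, from 6 and 28 UMIs). In Vegfa macrophages 0 were lower and 2 higher (7.2% and 6.21%), and the summed enzymes had a log2 ratio of -0.09 (-0.26 to 0.07). In the state with the lowest enzymes the interval of the difference between libraries thus included 0.

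In NK cells 4 were lower and 0 higher (8.18% and 5.35%), and the summed enzymes had a log2 ratio of -0.39 (-0.56 to -0.21). In Ccr7 dendritic cells 4 were lower and 1 higher (8.76% and 6.39%), in cDC1 1 lower and 2 higher (7.74% and 6.98%) and in T cells 1 lower and 1 higher (7.01% and 4.44%). In cycling macrophages 3 were lower and 0 higher (10.8% and 8.17%) and in cycling T cells 0 lower and 1 higher (6.58% and 3.68%). In T cells the summed enzymes had a log2 ratio of -0.05 (-0.14 to 0.04).

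Across classes, Abcg1 had a log2 ratio above 0 in 11 of 11 classes, between 0.18 and 0.81, with the interval above 0 in 8. It passed 1.5-fold in cDC1 (44.2 and 77.7 CPM), in Ccr7 dendritic cells (66.4 and 110.0 CPM) and in cycling T cells (21.7 and 34.5 CPM). Sqle had a log2 ratio below 0 in 11 of 11 classes, between -1.01 and -0.04, with the interval below 0 in 7 and 5 calls. All 11 classes share 1 pair of libraries, so signs that agree across them are not repeats. Hsd17b7 was below 0 in 10 of 11 with 6 calls, and Cyp51 in 10 of 11 with 2 calls and the interval below 0 in 7. Nr1h3 was higher in Vcan monocytes (9.36 and 16.3 CPM, log2 ratio 0.78) and in T cells (4.09 and 7.66 CPM, log2 ratio 0.91). How much of the T cell level was free RNA was not tested. Npc2 had no call in any class, with log2 ratios between -0.07 and 0.25. Melanoma markers moved with the library in the classes shown above, and their part in these differences was not tested.

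**Figure D5:**
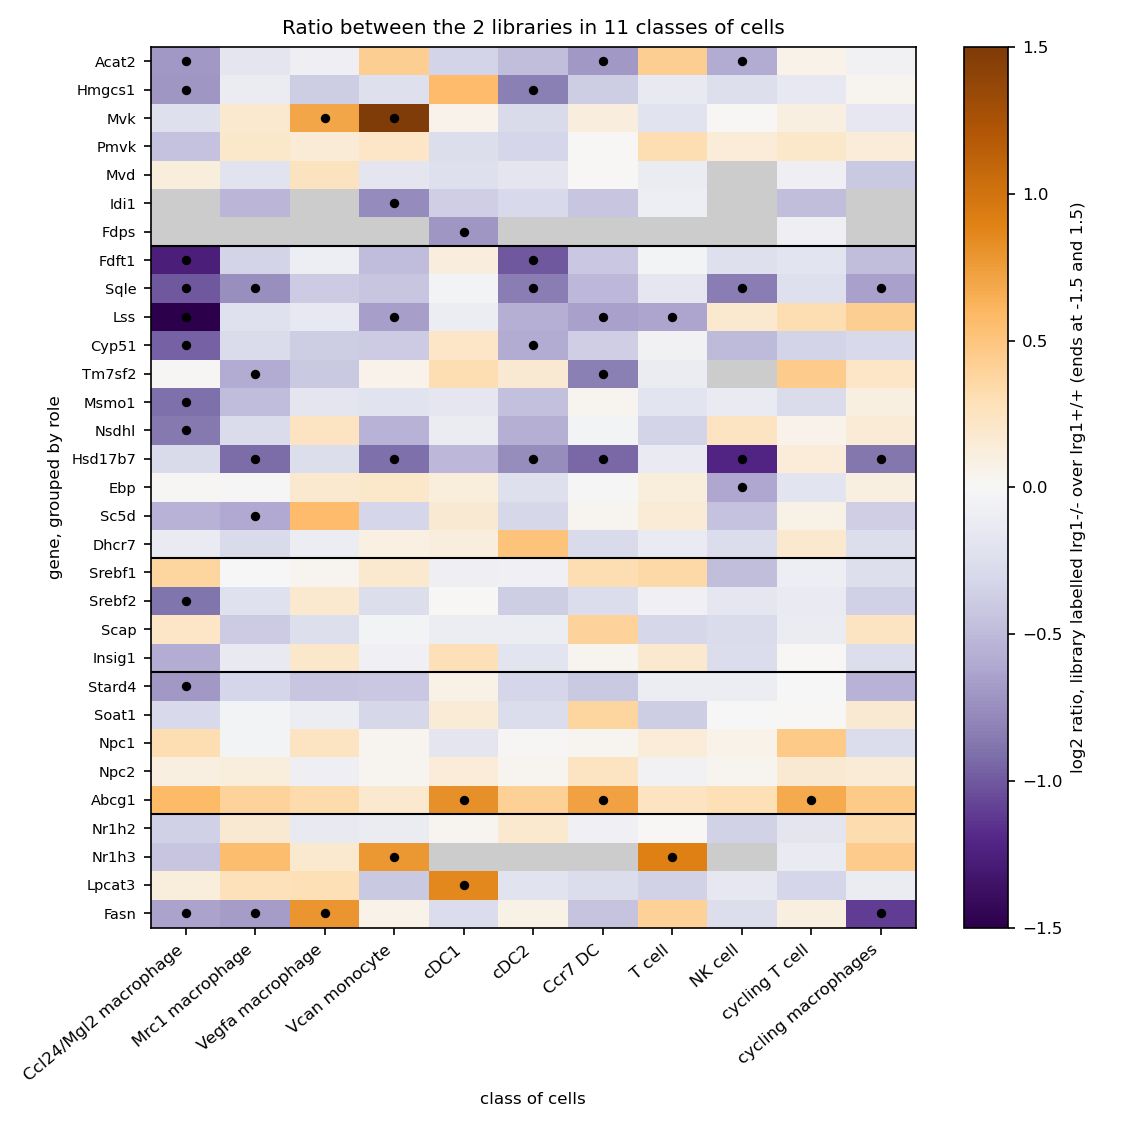
Log2 ratio of CPM between the library labelled Irg1-/- and the Irg1+/+ library for each of the 31 genes in 11 cell classes; black dots mark ratios past 1.5-fold and grey cells have under 20 UMIs over both libraries. The Abcg1 row is positive in 11 of 11 classes and the Sqle row is negative in 11 of 11 classes, and Ccl24/Mgl2 macrophages hold the most marked cells, 11 of them lower.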

How the data were processed

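Single-cell libraries of CD45+ cells from B16-F10 tumors were deposited as raw UMI counts per gene and cell, which the authors made with fastp, UMI-tools and STAR (Ensembl release 100, GRCm38); the submitters' notes also name CASAVA 1.8 and Seurat. The 31 members and the lists were chosen with earlier results of these data known. From the counts, cells were required to show over 200 genes and less than 10% of their UMIs in mitochondrial genes, after which those 13 genes were dropped. The study states the same limits. Cells with at least 1000 UMIs were assigned by marker gates, and cells that passed the gates of more than 1 dendritic, lymphoid or other lineage were left out. A cell of 1 such lineage that also passed a macrophage or monocyte gate was left out only where that marker level was well above the gate. Others of this kind stayed in their dendritic, lymphoid or other class. Of 1809 and 1865 myeloid cells, 364 and 315 passed the gates of more than 1 state and were kept, each in a single class. UMIs were summed per class and library, scaled to CPM, and compared as log2 ratios with 0.5 UMIs added and exact binomial intervals; levels have exact Poisson intervals and shares Clopper-Pearson intervals, for counting error only. The rule for naming took members with the most UMIs in a role or past 1.5-fold in both libraries, with at least 100 UMIs; the text orders them by role, and others (Fdps, members that did not pass) were named after their values were seen. Doublets marked by Scrublet at a threshold of 0.25 (41 and 63 cells) were kept, and the top 5% of scores were left out as an alternative. Alternatives covered scaling (TMM, edgeR 4.0.16), depth, gates, clusters (20, from 2000 genes), fold and UMI minimum; the cycling cDC1 and Mrc1 contrasts, and Abcg1 in thinned cycling cDC1, were added after the data were seen. Gene positions were taken from GENCODE M21 and promoter windows from RefSeq. Software was Python 3.11.15, scanpy 1.11.5, scipy 1.17.1 and R 4.3.3.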

Additional observations from a re-analysis of the deposited data

Results flagged for a closer look

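Fasn, the fatty acid synthase, differed between the libraries in opposite directions among myeloid classes. Its log2 ratio of the library labelled Irg1-/- to Irg1+/+ was -0.63 in Ccl24/Mgl2 macrophages (34 UMIs in Irg1+/+ and 13 in the library labelled Irg1-/-), -0.67 in Mrc1 macrophages (103 and 48 UMIs) and -1.11 in cycling macrophages (51 and 10 UMIs), but 0.79 in Vegfa macrophages (15 and 16 UMIs). The intervals in Vegfa macrophages, -0.32 to 1.91, and in Ccl24/Mgl2 macrophages, -1.71 to 0.29, included 0. The difference between these classes was not tested, since each genotype had 1 library.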

How the results depend on the processing

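No paired analysis was possible because each genotype had 1 library. Of 149 values that 15 results took under 11 alternatives, 112 stayed close to the reported value and 37 moved; for members called this compares totals only, and the cause was not tested. The balance of directions turned in cycling macrophages, from 2 higher and 0 lower to 0 and 1 with TMM scaling and 1 and 2 with the mean of each cell's CPM, in Vcan monocytes, from 8 and 2 to 2 and 3 with clusters, and in cycling T cells, from 3 and 1 to 0 and 1 with a 2-fold limit. With a 2-fold limit in place of 1.5-fold, the members called numbered 1 for Mrc1, 5 for Vegfa, 2 for Vcan, 9 for dendritic cells, 5 for lymphocytes, 6 for Ccr7 dendritic cells, 0 for cycling macrophages and 1 for cycling T cells, and 1 pair was higher and 6 lower between the libraries; the stricter limit itself lowers these counts. The 2 calls in cycling macrophages became 1 with mitochondrial UMIs under 5%, without the top 5% of doublet scores, with clusters and with stricter gates, 1 other call (lower) with TMM scaling, and 5 in cells thinned to 2000 UMIs. The 0 calls in Ccl24/Mgl2 macrophages became 3 in thinned cells and 2 with stricter gates, and the 10 in Vcan monocytes became 5 with clusters. The 9 pairs higher in the library labelled Irg1-/- became 21 in thinned cells, 14 with the mean of each cell's CPM, 14 with clusters, 4 with at least 50 UMIs and 16 with no minimum. The summed enzymes of Mrc1 macrophages, 629 and 506 CPM, became 711 and 551 in thinned cells and 680 and 553 with TMM scaling, and in Irg1+/+ 670 with the mean of cells and 677 with clusters. Those of T cells, 672 and 650 CPM, became 607 and 591 in thinned cells, 605 and 515 with the mean of cells and 644 and 582 with clusters, and in Irg1+/+ 637 with TMM scaling. In Irg1+/+ these values turn the order of Mrc1 macrophages and T cells. With 1 library of 3 pooled mice per genotype, spread between mice is unknown, and members with few UMIs, such as Fdps, could show only large differences.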

Other observations

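Neutrophils, gated on S100a8, S100a9 and Cxcr2 (55 and 138 cells), had Abcg1, with Irg1+/+ given first, at 292 CPM (202 to 408) and 206 CPM (156 to 266), and Soat1 at 309 and 298 CPM. The summed enzymes were at 601 CPM (469 to 760) and 401 CPM (331 to 483). In eosinophils, 18 and 52 cells, the summed enzymes were at 279 CPM (128 to 530) and 567 CPM (431 to 731), from 9 and 59 UMIs.

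The 30 and 5 cells gated as melanoma, left in spite of the CD45 sort, had summed enzymes of 1387 CPM (1311 to 1467) and 2202 CPM (1967 to 2458). Msmo1 was at 270.0 and 511 CPM there and Insig1 at 246 and 476 CPM. Abcg1 was at 25.9 CPM (16.4 to 38.8) in Irg1+/+, below the Vegfa macrophages of that library at 241 CPM, and rested on 1 UMI in the library labelled Irg1-/-.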
